A study of Homo sapiens with 12 samples.

Results

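The experiment crossed a construct with a cytokine, and the quantity described here is their interaction: how far the transcript response to interferon gamma (IFN-gamma) in HEK293 cells carrying A197-270 differed from the response in HEK293 cells carrying a vector. HEK293 is an established human embryonic kidney line. The interaction was defined by the design alone and used all 12 of the 12 poly(A) RNA libraries of the series, in 4 groups of 3. The vector group received a Flag vector and no cytokine, and the A197-270 group received the A197-270 tandem plasmids and no cytokine. The vector + IFN-gamma and A197-270 + IFN-gamma groups received the same plasmids and then IFN-gamma. All groups were transduced on day 1 and harvested on day 4, and IFN-gamma was given on day 2 where the group had it. The labels do not say what A197-270 encodes, at what dose IFN-gamma was used, or what share of cells took up a plasmid, and cells without any plasmid were not analysed here. They number the samples from 1 to 12 and do not say that replicates came from separate cultures, so a p-value reflects only how far these samples spread, and that spread may be technical. In RNA from whole cultures, fewer responding cells and less RNA per cell cannot be told apart.

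As background, IFN-gamma binds a receptor that is coupled to the kinases JAK1 and JAK2, and its signal reaches GAS elements in promoters. Interferons of types I and III, such as interferon beta and the interferon lambdas, lead to a complex with STAT2 and IRF9 among its subunits that acts on ISRE elements. IRF1, itself induced through a GAS element, also binds ISRE-like sites. Cells that make a little type I interferon keep many antiviral genes partly switched on, so the same gene can start a response to IFN-gamma from different levels.

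Values are the authors' normalized counts. The interaction of a gene is its log2 response in A197-270 cells minus its log2 response in vector cells, on log2(normalized count + 1). It equals the construct difference with IFN-gamma (the treated difference) minus the construct difference without it (the baseline difference). A positive value is a larger fold response in A197-270 cells. Differences were called at a Benjamini-Hochberg adjusted p under 0.05 in limma, fitted over 14049 genes, and errors beside log2 values are standard errors (SE).

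The libraries held 31417431 to 70746868 reads, and the deepest were vector 3 and A197-270 5. The share of reads on the mitochondrial genome was 0.355% to 0.480% in vector, 0.546% to 0.802% in A197-270, 0.405% to 0.475% in vector + IFN-gamma and 0.478% to 0.712% in A197-270 + IFN-gamma libraries, so this share moved with the construct. Its part in the results was not tested. Of the 15 markers of other cell types 8 were tested, and the summed level of the 15 was 2437 to 2587 in vector, 2190 to 2407 in A197-270, 3187 to 3558 in vector + IFN-gamma and 2421 to 2802 in A197-270 + IFN-gamma libraries. The red cell gene HBB was at 0 in all libraries, and the leukocyte marker PTPRC and the T cell marker CD3E were each above 0 in 1 library, at 1.18 and 3.61. Their part in the results was not tested. Of 9 tested markers that HEK293 cells carry, such as VIM, KRT8 and KRT18, 0 were called in the interaction, where 0.897% of all genes tested were. KRT19 was at most 4 normalized counts.

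IFN-gamma produced a larger fold response in A197-270 cells for 115 genes and a smaller one for 11, which were 0.819% and 0.0783% of the genes tested and together 0.897%. At an unadjusted p under 0.05 there were 1665 genes. Of the 115, 79 belonged to the gene lists described here, 42 of them to the list of antiviral interferon-stimulated genes, and 107 were lower in A197-270 cells before treatment. Their interaction ran from 0.25 to 6.86 with a median of 1.52, against a median of 0.01 over all genes tested, and was at least 2-fold for 76 genes and at least 8-fold for 31. Over all genes tested an interaction of at least 2-fold in either direction was found for 414. Of these, 172 higher and 165 lower were not called. Before treatment the median difference between A197-270 and vector cells was -1.92 over the 115, and with IFN-gamma it was -0.25. The corresponding medians over all genes tested were close to 0, at -0.000778 and -0.00502. The 11 genes with a smaller response had a median interaction of -0.42.

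**Figure D1:**
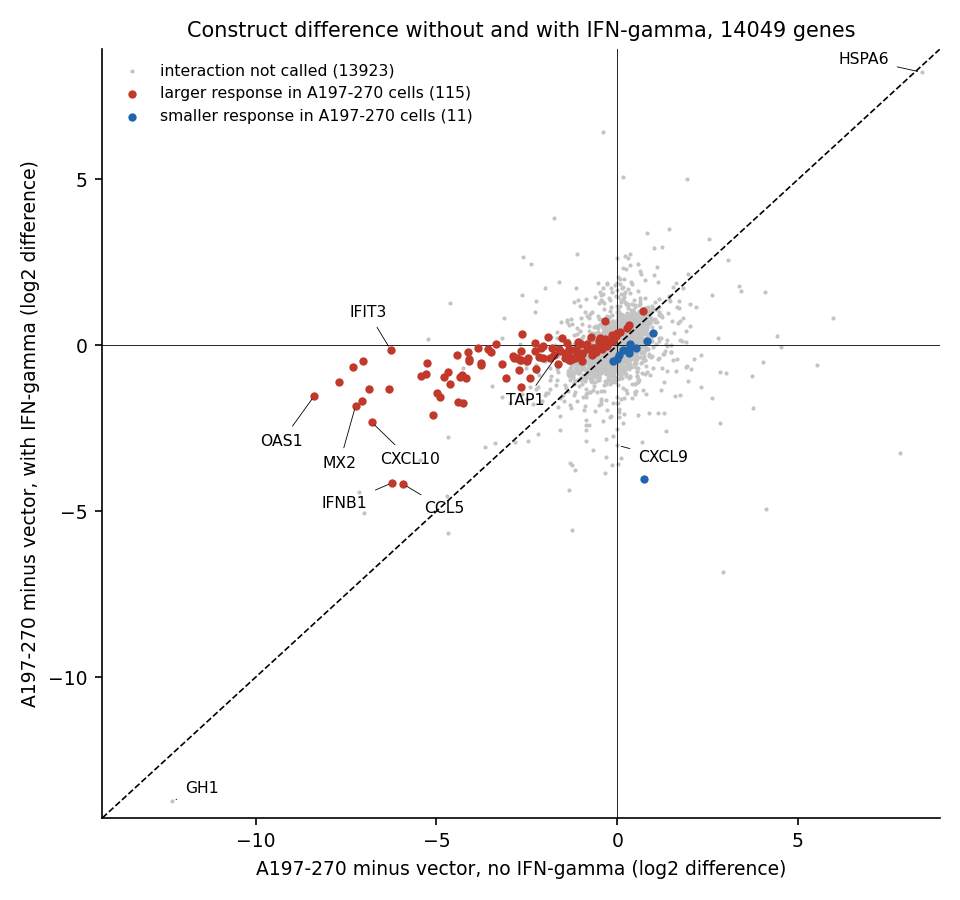
Each point is 1 gene, with the log2 difference between A197-270 and vector cells without IFN-gamma on the horizontal axis and with IFN-gamma on the vertical axis; the dashed line marks an interaction of 0. The 115 genes in red lie above the line, most of them at a negative baseline difference and near a treated difference of 0, while HSPA6 and GH1 lie far out along the line.

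The 115 genes were separated by whether the construct difference was called before treatment, after it, or both. It was called only before treatment for 43 genes, in the same direction at both times for 62, in opposite directions for 5 and only with IFN-gamma for 5. At baseline 107 of the 115 were called lower in A197-270 cells and 3 higher, where 12.6% and 12.5% of all genes were. In 107 of the 115 every A197-270 library lay below every vector library before treatment. With IFN-gamma 59 were lower, 13 were higher and 43 were not called, where 16.2% of all genes were lower and 18.6% higher. Because the interaction is made of these same differences, the counts describe the 115 genes and are no separate evidence.

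The construct difference of 43 genes was called only at baseline, and a missed call with IFN-gamma does not show equal levels. Among them was IFIT3 (ENSG00000119917.13, chr10:89327894-89340971, plus strand in hg38), which binds other IFIT proteins that recognise foreign RNA ends. It had 23714, 19624 and 15261 normalized counts in vector and 319.9, 247 and 194 in A197-270 libraries, then 32466, 27897 and 26755 and 27373, 27549 and 24154 with IFN-gamma. The groups were far apart without the cytokine and overlapped with it. The interaction was 6.13 ± 0.23 SE (limma adjusted p = 1.89e-10), from a rise of 0.59 in vector cells and 6.72 in A197-270 cells. DDX58, the RNA sensor RIG-I, had 5679 and 323 normalized counts before and 5072 and 4416 after treatment in vector and A197-270 cells. EIF2AK2, the kinase PKR that halts translation on double-stranded RNA, had 29761, 28477 and 29152 in vector and 6960, 7673 and 6631 in A197-270 libraries. With IFN-gamma EIF2AK2 had 28501, 29860 and 26349 and 27125, 29022 and 27149, so the groups overlapped, and it rose in A197-270 cells (1.97), with -0.05 in vector cells (limma adjusted p = 0.614).

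OAS1 (ENSG00000089127.12, chr12:112906777-112933222, plus strand), which makes an oligoadenylate messenger when it meets double-stranded RNA, had the largest interaction of the 115 with a pseudocount of 1. It had 1488, 1336 and 1276 normalized counts in vector and 11.3, 4.67 and 0 in A197-270 libraries, and 4376, 3869 and 3843 and 1561, 1615 and 1095 with IFN-gamma. The A197-270 libraries lay below all vector libraries at both times, but the treated difference of -1.52 missed the threshold (limma adjusted p = 0.0571), so by its calls OAS1 differed only at baseline. Its interaction was 6.86 ± 0.82 SE (limma adjusted p = 0.00016), and it ranged from 5.04 to 7.64 over the alternatives, which include other pseudocounts. XAF1 was above OAS1 in edgeR (9.68), in DESeq2 (9.34) and with a pseudocount of 0.5 (7.64), and IFIT3 and RSAD2 were above it with a pseudocount of 10. CMPK2, a mitochondrial nucleotide kinase, had 306, 275 and 225 in vector and 7.51, 0 and 0 in A197-270 libraries, and 617, 461 and 515 and 411, 488 and 269 with IFN-gamma. Its libraries overlapped after treatment and its interaction was 6.55 ± 0.83 SE (limma adjusted p = 0.000283), with a range of 4.05 to 7.58 over the alternatives.

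Among the 62 genes that stayed different in the same direction, XAF1 (ENSG00000132530.16, chr17:6755447-6775647, plus strand), a pro-apoptotic interferon-stimulated gene, was at 0 in A197-270 libraries 4, 5 and 6 against 176, 145 and 155 in vector libraries. With IFN-gamma it reached 961, 1121 and 1068 in A197-270 cells and 1778, 1669 and 1559 in vector cells. Its level in A197-270 cells rose at least 1310-fold, against a floor of 3 reads over the group, and 10.5-fold in vector cells (log2 3.39). Its fitted interaction ranged from 3.41 to 9.68 over the alternatives and is no bound. RSAD2, the antiviral enzyme viperin, had 2516, 1932 and 1659 in vector and 15, 12.2 and 3.15 in A197-270 libraries, then 7113, 6030 and 5732 and 3114, 3462 and 2300. A197-270 libraries were below all vector libraries at both times, by -7.71 before and -1.1 with IFN-gamma, and the interaction was 6.61 ± 0.51 SE (limma adjusted p = 7.76e-07).

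ISG15, a ubiquitin-like modifier, had 3943, 4097 and 4657 in vector libraries and 4600, 4499 and 4328 in vector + IFN-gamma libraries, a response of 0.08 that was not called (limma adjusted p = 0.7). In A197-270 cells it went from 179, 134 and 112 to 1648, 1618 and 1351, a rise of 3.45, and remained below every vector library. Its interaction was 3.37 ± 0.18 SE (limma adjusted p = 1.28e-08). IFIT1, which binds RNA lacking host-type caps, fell by 0.71 on the log2 scale in vector cells (limma adjusted p = 0.0144) and rose by 4.01 in A197-270 cells. Its values were 45004, 36591 and 31841 in vector, 24602, 22525 and 21731 in vector + IFN-gamma, 1346, 993 and 704 in A197-270 and 15874, 17958 and 13919 in A197-270 + IFN-gamma libraries. The construct groups did not overlap at either time, and the gap narrowed from both sides. Besides IFIT1, the genes that fell in vector cells and rose in A197-270 cells were PNPT1, DNAJA1 and PPM1K.

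In 15 of the 115 genes the level reached with IFN-gamma was still at least 2-fold lower in A197-270 cells with a called difference, which OAS1 missed. The largest gaps were in CCL5 (-4.18), IFNB1 (-4.14), CXCL10 (-2.32), IFI27 (-2.1), MX2 (-1.81), IFI16 (-1.73), OAS2 (-1.69) and IFITM3 (-1.69). At the other end, the treated levels of 63 of the 115 lay within 1.5-fold of each other by the 95% interval of the difference, and 20 of these were still called lower. The same held for 77.7% of all genes tested.

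The chemokine and interferon genes were at the far end. CCL5 (ENSG00000271503.5, chr17:35871491-35880793, minus strand), a T cell attractant, had 2649, 2700 and 2338 in vector and 40.3, 40.8 and 42 in A197-270 libraries, and 2570, 2493 and 2734 and 130.5, 197 and 112 with IFN-gamma. It did not change detectably in vector cells (0.02, limma adjusted p = 0.943) and rose by 1.77 in A197-270 cells, where it stayed far below every vector library. IFNB1, the interferon beta gene, had 561, 557 and 495 in vector and 6.57, 5.83 and 6.3 in A197-270 libraries, and 951, 833 and 908 and 39.5, 83.3 and 37.5 with IFN-gamma. No A197-270 library came near a vector library at either time, and the interaction was 2.08 ± 0.33 SE (limma adjusted p = 0.00301), which missed the threshold with a pseudocount of 10 (1.16, adjusted p = 0.0829). CXCL10 (ENSG00000169245.5, chr4:76021117-76023497, minus strand), the chemokine IP-10, had 520.2, 498 and 479.7 in vector and 0, 7.0 and 10.5 in A197-270 libraries, then 3931, 3384 and 3431 and 783, 736 and 638. Its interaction was 4.47 ± 0.84 SE (limma adjusted p = 0.0145), and with a pseudocount of 0.5 the adjusted p was 0.052.

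The 5 genes whose construct difference changed sign were IFIT5, TRIM25, SAMHD1, LAP3 and DDX23. IFIT5 (ENSG00000152778.8, chr10:89414586-89421001, plus strand), an RNA-binding member of the IFIT family, had 3353, 3006 and 2584 in vector and 814, 769 and 767 in A197-270 libraries, and 3563, 3128 and 2967 and 4028, 4066 and 3431 with IFN-gamma. The A197-270 libraries were lowest before treatment, and 2 of the 3 were highest after it. Its difference went from -1.92 to 0.25 (limma adjusted p = 0.0423 with IFN-gamma). TRIM25, the ubiquitin ligase that activates RIG-I, had 7816, 7858 and 7661 and 2881, 2820 and 2407, then 8455, 8501 and 8289 and 9924, 10039 and 9747, so its groups did not overlap at either time and their order turned. SAMHD1, which hydrolyses deoxynucleotides, went from -0.72 to 0.25 and had an interaction of 0.98 ± 0.08 SE (limma adjusted p = 1.74e-06). The class held 2 genes with libraries scaled to equal totals and 3 after quantile normalization, where 5 were found with the authors' scaling. It held 9 genes without vector 3 and 3 without vector 2, A197-270 6, vector + IFN-gamma 7 or 9, or A197-270 + IFN-gamma 10 or 11.

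The 5 genes called only with IFN-gamma were NME2, THG1L, ALKBH3, LIPA and AAAS, all of which fell in vector cells and were not called in A197-270 cells. NME2, a nucleoside diphosphate kinase, had 6125, 8798 and 5519 in vector and 3702, 2617 and 3029 in vector + IFN-gamma libraries, and 5976, 4316 and 5623 and 4760, 5645 and 4983 in A197-270 cells. Only the vector + IFN-gamma libraries, with the A197-270 5 library next to them, were low. Its interaction was 1.08 ± 0.23 SE (limma adjusted p = 0.0378), and the NME1-NME2 read-through transcript could share its reads. ALKBH3, which repairs alkylated bases, had an interaction of 0.38 ± 0.078 SE (limma adjusted p = 0.0311) and THG1L, which matures a histidine transfer RNA, one of 0.46 ± 0.096 SE (limma adjusted p = 0.036). The class held 0 genes without vector 2, 1 without A197-270 4 or A197-270 + IFN-gamma 11, 2 without vector 1, A197-270 6, vector + IFN-gamma 9 or A197-270 + IFN-gamma 10, 8 without A197-270 + IFN-gamma 12 and 22 without vector 3. NME2 lost its call without vector 1 or 2, A197-270 5 or 6, vector + IFN-gamma 8 or 9, A197-270 + IFN-gamma 10 or 11 or 12 (adjusted p = 0.055 to 0.111), and also in edgeR, under equal totals, after quantile normalization and with no filter on low values (adjusted p = 0.0512 to 0.0702). THG1L lost it without vector 1 or 2, A197-270 4 or 6, vector + IFN-gamma 7 or 8 or 9, A197-270 + IFN-gamma 10 or 11 (adjusted p = 0.0528 to 0.119) and under equal totals (adjusted p = 0.0827). ALKBH3 lost it without vector 1 or 2, A197-270 4 or 6, vector + IFN-gamma 7 or 8, A197-270 + IFN-gamma 11 or 12 (adjusted p = 0.0553 to 0.103) and under equal totals (adjusted p = 0.0824).

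**Figure D2:**
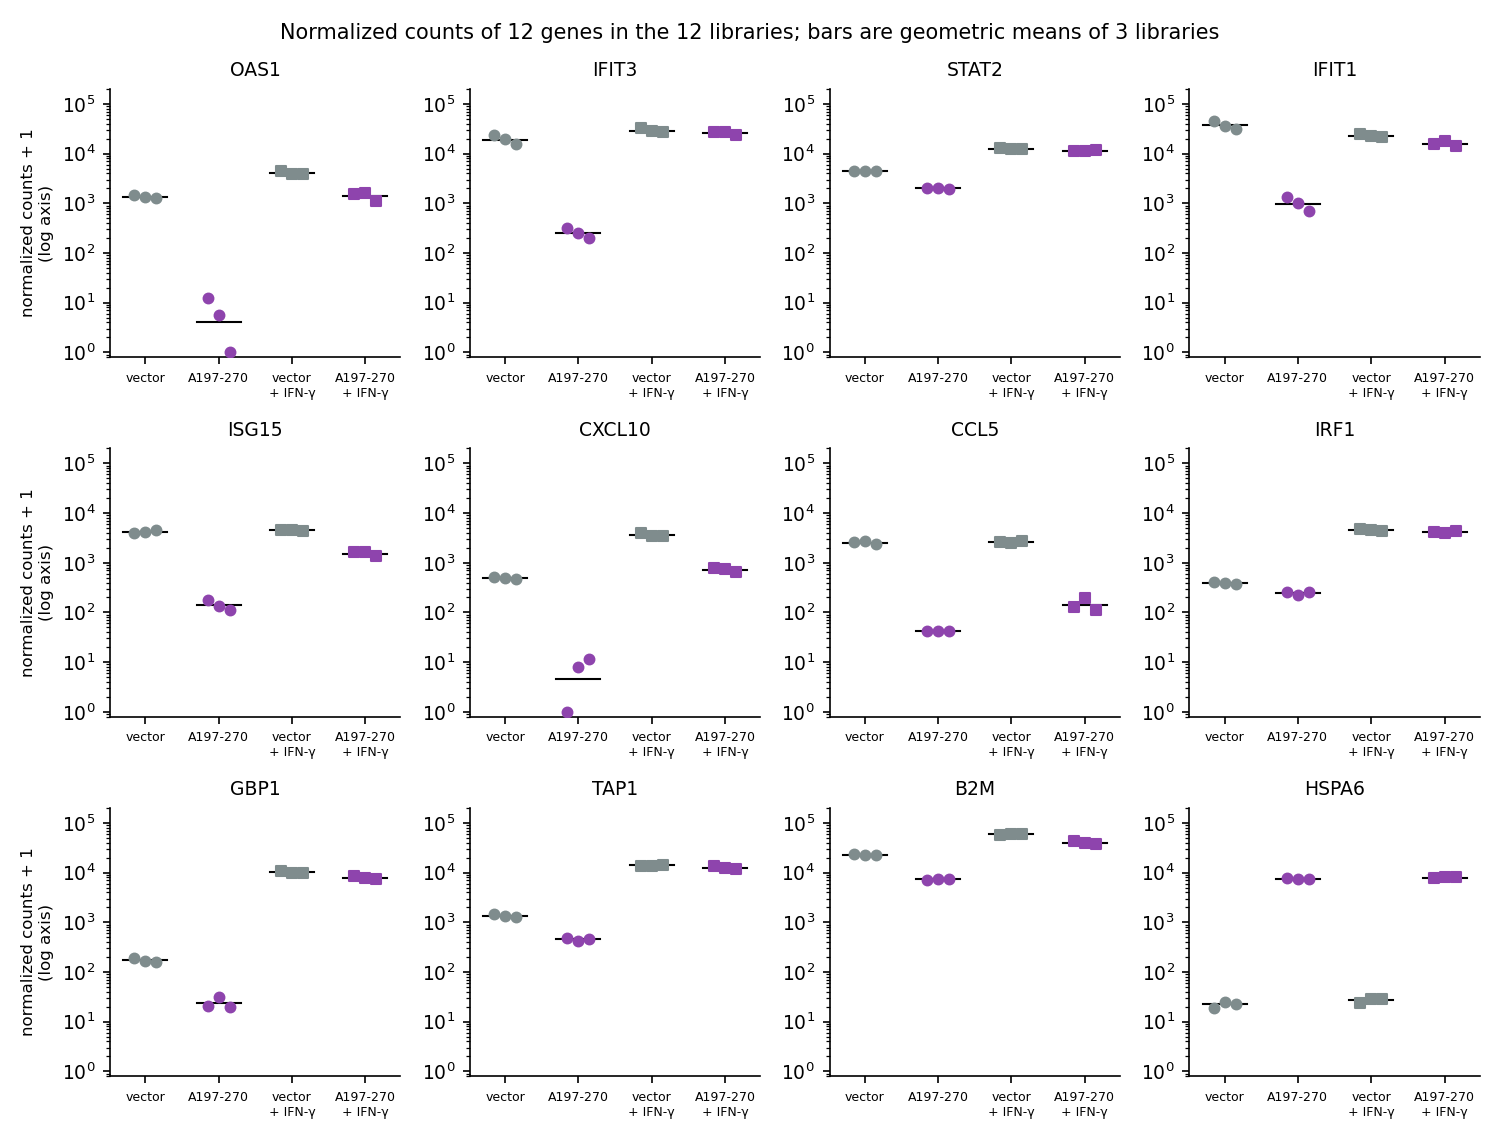
Normalized counts plus 1 of 12 genes on a log axis, 1 point per library and 1 column per group of 3 libraries, with bars at the geometric mean. IFIT3, IRF1 and TAP1 reach overlapping or nearby levels with IFN-gamma, CCL5 and CXCL10 stay lower in A197-270 cells, and HSPA6 is high in both A197-270 groups.

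Promoter sequences of 8 genes are printed to show which letters of the interferon elements these classes carry. They are from RefSeq on GRCh38.p14, read in the direction of the gene up to the base before the annotated start, with capitals marking each match. The motifs searched were GAAANN followed directly by GAAA, or on the other strand TTTCNN followed by TTTC, for the ISRE and TTCNNNGAA, which is its own reverse complement, for the GAS element. IFIT3 is at chr10:89327821-89327996 on the plus strand, and OAS1 is at chr12:112906774-112906961 on the plus strand, both from the genes called only at baseline. ISG15 is at chr1:1013364-1013496 on the plus strand, and CXCL10 is at chr4:76023498-76023738 on the minus strand, from the genes that stayed lower. IFIT5 is at chr10:89414468-89414567 on the plus strand, from the genes whose difference changed sign.
IFIT3: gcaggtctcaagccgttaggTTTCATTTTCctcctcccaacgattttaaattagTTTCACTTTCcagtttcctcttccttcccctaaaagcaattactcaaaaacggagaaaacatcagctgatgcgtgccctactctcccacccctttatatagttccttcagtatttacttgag
OAS1: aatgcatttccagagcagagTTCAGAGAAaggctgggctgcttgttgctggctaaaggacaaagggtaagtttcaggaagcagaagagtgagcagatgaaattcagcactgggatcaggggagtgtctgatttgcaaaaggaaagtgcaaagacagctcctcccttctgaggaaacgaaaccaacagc
ISG15: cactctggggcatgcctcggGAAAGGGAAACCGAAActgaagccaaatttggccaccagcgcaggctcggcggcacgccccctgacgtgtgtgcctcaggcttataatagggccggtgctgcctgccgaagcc
CXCL10: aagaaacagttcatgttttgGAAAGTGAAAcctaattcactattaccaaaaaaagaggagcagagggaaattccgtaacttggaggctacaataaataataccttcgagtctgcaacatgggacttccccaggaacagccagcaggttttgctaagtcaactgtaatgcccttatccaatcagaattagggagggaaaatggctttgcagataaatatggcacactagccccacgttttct
IFIT5: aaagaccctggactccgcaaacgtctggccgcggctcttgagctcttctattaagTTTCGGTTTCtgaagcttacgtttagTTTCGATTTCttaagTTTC
The capitals in ISG15 cover 2 overlapping ISRE matches, and the last capitals in IFIT5 are the first letters of a match that crosses the start. OAS1 shows a GAS match and no match to the ISRE letters searched in this window, which does not show that it lacks such an element.

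The other 3 are genes that IFN-gamma raised strongly in both arms. IRF1 is at chr5:132490774-132490917 on the minus strand, GBP1 is at chr1:89065209-89065355 on the minus strand and TAP1 is at chr6:32853705-32853858 on the minus strand.
IRF1: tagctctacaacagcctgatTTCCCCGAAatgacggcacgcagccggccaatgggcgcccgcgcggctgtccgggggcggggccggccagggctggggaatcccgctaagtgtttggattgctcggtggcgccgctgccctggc
GBP1: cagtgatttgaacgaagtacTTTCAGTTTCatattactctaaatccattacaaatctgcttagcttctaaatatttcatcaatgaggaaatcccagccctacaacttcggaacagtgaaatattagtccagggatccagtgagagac
TAP1: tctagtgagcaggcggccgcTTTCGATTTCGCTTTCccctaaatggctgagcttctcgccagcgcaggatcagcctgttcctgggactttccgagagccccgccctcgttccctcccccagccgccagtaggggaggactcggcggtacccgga
IRF1 carries a GAS match, GBP1 an ISRE match and TAP1 2 overlapping ISRE matches. An ISRE match lay in 39 of the 89 promoters found for the 115 genes (43.8%), against 2.82% of the 11243 promoters of tested genes and 3.65% of all 27305 promoters, whose window runs from 250 bases before the start to 50 after it. A GAS match lay in 17 of the 89 (19.1%), against 6.16% and 7.88%. Both were found in 7 and neither in 40. Of the 33 promoters of genes called only at baseline 15 held an ISRE match, as did 22 of 46 of the genes that stayed different, 2 of 5 of those that changed sign and 0 of 5 of those called only with IFN-gamma. For the genes with a smaller response the count was 0 of 7 for either motif. A match is a string of letters and no measurement of binding. The search took only these exact letters and spacing, so a lack of a match does not show that an element is absent. The windows of different genes were not tested against each other.

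Separated by the size of the response, the share of genes among the 115 was highest where the response was strong. Of the 59 genes whose mean response over both arms was above 3 on the log2 scale, 26 had a larger response in A197-270 cells (44.1%), as did 51 of 153 genes between 1 and 3 (33.3%) and 13 of 260 between 0.5 and 1 (5%). Among the 13374 genes between -0.5 and 0.5 there were 24 (0.179%). That mean includes the A197-270 response, so a strong rise in A197-270 cells alone can place a gene in the upper ranges. IFIT3, with 0.59 in vector and 6.72 in A197-270 cells, had a mean of 3.655. The split by response therefore describes the genes and is no separate evidence. By baseline, 38 of 55 genes that were more than 8-fold lower in A197-270 cells were among the 115, and 43 of 180 that were 2-fold to 8-fold lower. Of 84 genes 2-fold to 8-fold higher at baseline and 15 more than 8-fold higher, 0 were called in either direction. Their median interactions were -1.08 and -4.52. The interaction subtracts the baseline difference, so this split describes the genes and is no separate evidence. By mean treated level, the 115 included 95 of 7586 genes of at least 1000 normalized counts, 19 of 4505 between 100 and 1000 and 1 of 1958 below 100.

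IFN-gamma raised 68 of the 115 genes in both arms, where 7.32% of all genes rose in vector cells and 4.19% in A197-270 cells. A further 34 rose in A197-270 cells and were not called in vector cells, 9 fell in vector cells and were not called in A197-270 cells, and 4 fell in the first and rose in the second, where 9.79% of all genes fell in vector cells. The median response was 0.60 in vector cells and 2.50 in A197-270 cells. Conversely, 105 genes rose at least 2-fold in both arms, and of these 40 had a larger response in A197-270 cells, 0 a smaller one and 65 no called difference. Of 39 genes that rose at least 2-fold in A197-270 cells and were not called in vector cells, 22 were among the 115. Of 22 genes that rose at least 2-fold in vector cells and were not called in A197-270 cells, 0 had a called interaction. The interaction estimate was above 0 in 39 of the 39 genes and in 0 of the 22. Choosing genes by a call in a single arm largely sets this direction, so these counts are no separate evidence.

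**Figure D3:**
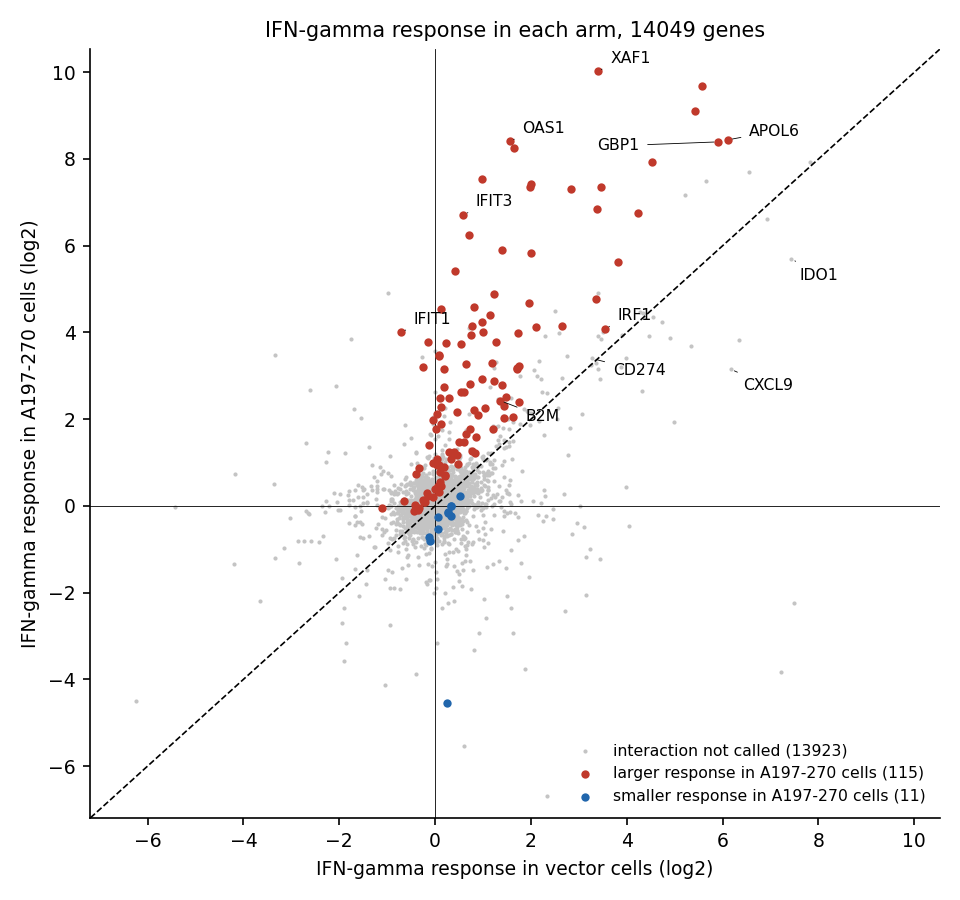
Each point is 1 gene, with its log2 response to IFN-gamma in vector cells on the horizontal axis and in A197-270 cells on the vertical axis; the dashed line marks equal responses. The 115 genes in red lie above the line, IFIT1 left of 0 in vector cells and GBP1, APOL6 and XAF1 with strong responses in both arms.

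A larger fold response was not always a larger gain in transcripts. The gain, the mean normalized count with IFN-gamma minus that without, was larger in A197-270 cells for 88 of the 115 genes and smaller for 27, and the difference was beyond 2 SE for 71 and 17. These genes were selected for a larger fold response, which favours a larger gain. No share over all genes tested was computed, so the counts only describe the 115. IFIT3 gained 26105 normalized counts in A197-270 cells and 9506 in vector cells, and EIF2AK2 gained 20677 in A197-270 cells while its change in vector cells was -894. CXCL10 went the other way, with a gain of 713 in A197-270 and 3083 in vector cells, although its fold response was larger in A197-270 cells. The same held for the antiviral genes OAS2 (1684 and 4030), IFITM3 (2428 and 6047), MX2 (271 and 717) and OAS1 (1418 and 2662), with the A197-270 gain first. Their mean levels in A197-270 cells without IFN-gamma ran from 0.973 (MX2) to 97.7 (IFITM3). For APOL6, a gene that IFN-gamma raised strongly in both arms, the gains were 10545 and 10031, while its fold response was 348 in A197-270 and 69.5 in vector cells.

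The members of the pathway were then taken by role, from receptors to effectors. The counts of each list stand against 0.819% of all genes tested with a larger response and 0.0783% with a smaller one. Of 24 tested genes of JAK-STAT signalling and its feedback, 4 had a larger response in A197-270 cells and 20 were not called (median 0.07). The receptor genes IFNGR1 and IFNGR2 had interactions of -0.01 and -0.01 and the kinase genes JAK1 and JAK2 of 0.08 and -0.07, with adjusted p-values of 0.691 (JAK1) to 0.983 (IFNGR2) in limma. The called genes included STAT2 (1.04) and IRF9 (2.08), which encode subunits of the ISRE-binding complex, and USP18 (0.72), the protease that removes ISG15 and restrains type I receptors. STAT2 had 4491, 4414 and 4545 in vector and 2012, 2074 and 1915 in A197-270 libraries, and 12977, 12325 and 12102 and 11299, 11228 and 11713 with IFN-gamma. A197-270 libraries were below vector libraries at both times, by -1.17 and then by -0.13. STAT3 and the feedback inhibitor SOCS3 rose in both arms, by 0.83 and 1.63 in vector and 0.91 and 1.5 in A197-270 cells, with interactions of 0.08 and -0.14 that were not called (adjusted p = 0.553 and 0.827).

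Of 14 interferon regulatory factors and related transactivators, 8 had a larger response (median 0.71). IRF1 (ENSG00000125347.13, chr5:132481609-132490798, minus strand) had 408, 389.5 and 374 in vector and 252, 226 and 257 in A197-270 libraries, and 4744, 4626 and 4350 and 4210, 4033 and 4322 with IFN-gamma. Its A197-270 libraries were below all vector libraries at both times, closely so with IFN-gamma, where the difference was not called. The interaction of 0.54 ± 0.085 SE (limma adjusted p = 0.00278) was small beside its fold responses of 11.7 in vector and 17 in A197-270 cells. IRF7, the amplifier of type I interferon expression, had an interaction of 2.62, and the nuclear body genes SP100, SP110 and PML had 3.84, 3.65 and 0.88. NLRC5, the transactivator of MHC class I genes, had 1.49 and BATF2 1.47. IRF8 rose in both arms, by 1.48 and 1.36, with an interaction of -0.11 (limma adjusted p = 0.637), and IRF2 and IRF3 were also not called.

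Of 13 genes of nucleic acid sensing 7 had a larger response (median 0.96). They were the RNA sensors DDX58 (3.93), IFIH1 or MDA5 (3.18), DHX58 (1.4) and TLR3 (1.46), the kinase EIF2AK2 (2.02), the RNA-editing enzyme ADAR (0.96) and the DNA sensor IFI16. The adaptor and kinase genes downstream of the sensors, MAVS, TICAM1, TMEM173, TBK1 and IKBKE, had interactions of -0.16 to 0.14 and were not called. IFIH1 had 3057, 2991 and 2864 in vector and 237, 229.9 and 189 in A197-270 libraries, and 4650, 4172 and 4168 and 2989, 3000 and 2690 with IFN-gamma, so A197-270 cells ended close to the untreated vector level and below the treated one. IFI16 was at 0 in A197-270 libraries 4, 5 and 6 and at 22.9, 12 and 21.8 in vector libraries, and reached 121, 119.5 and 86.5 and 399, 356 and 328 with IFN-gamma. Its interaction of 2.53 (limma adjusted p = 0.00516) turned to -0.14 (adjusted p = 0.866) with a pseudocount of 10, and with that pseudocount 4 of the 13 genes were called. Against a floor of 3 reads over the group, IFI16 rose at least 136-fold in A197-270 cells, and its fitted rise in vector cells was 18.8-fold.

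The antiviral interferon-stimulated genes made up the largest group: 42 of 48 tested had a larger response and 0 a smaller one, with a median of 3.09. At baseline 47 of the 48 were lower in A197-270 cells, where 12.6% of all genes were. With IFN-gamma 33 were lower and 3 higher, where 16.2% and 18.6% of all genes were. The cytokine raised 47 in A197-270 cells and 30 in vector cells, where 4.19% and 7.32% of all genes rose. IFI6, a mitochondrial and ER protein of interferon-treated cells, had 24485, 24020 and 25235 in vector and 1167, 993 and 855 in A197-270 libraries, then 21671, 19907 and 20196 and 10580, 10181 and 7173. It rose in A197-270 cells (3.2) to below every vector library, with -0.26 in vector cells (limma adjusted p = 0.171). HERC5, the ligase that attaches ISG15, had an interaction of 1.52 ± 0.092 SE (limma adjusted p = 5.65e-08). The 6 not called were NMI (0.72), MX1 (3.57), ISG20 (0.53), UBA7 (0.51), IFITM2 (0.14) and PARP14 (-2.51), with adjusted p-values of 0.107 to 0.612. MX1, a GTPase that blocks incoming viruses, had 50.6, 37 and 35.9 in vector and 0, 9.34 and 0 in A197-270 libraries, and 42.2, 36.4 and 44 and 15.6, 41 and 24 with IFN-gamma. PARP14, an ADP-ribosyltransferase, was listed at 0, 0 and 0 in vector, 0, 0 and 0 in A197-270, 81.3, 86.5 and 73.2 in vector + IFN-gamma and 13.2, 12.1 and 14.6 in A197-270 + IFN-gamma libraries. A smaller response of 1 gene of the list was called with no filter on low values and with a pseudocount of 10. For MX1, without A197-270 5, the only A197-270 library above 0 before treatment, the interaction was 4.69 (adjusted p = 0.000582).

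Of 15 chemokine and cytokine genes 3 had a larger response, CXCL10, CCL5 and CXCL8, and the median was 0.58. CXCL8, the neutrophil attractant interleukin-8, had 204, 175 and 135 in vector and 61.9, 68.8 and 64.1 in A197-270 libraries, and 139.9, 119 and 126 and 109, 103 and 117 with IFN-gamma. It rose in A197-270 cells (0.74), where vector cells had -0.40 (limma adjusted p = 0.1), with an interaction of 1.14 ± 0.22 SE (limma adjusted p = 0.0207) that was lost without any 1 of 8 libraries: vector 1 or 2, A197-270 4 or 6, vector + IFN-gamma 8 or 9, A197-270 + IFN-gamma 10 or 12 (adjusted p = 0.0524 to 0.0756). CXCL9, a chemokine that IFN-gamma induces in many cells, was at 0 in all vector and all A197-270 libraries, and reached 85.4, 45.1 and 91.6 in vector + IFN-gamma and 4.79, 9.65 and 10.4 in A197-270 + IFN-gamma libraries. Its treated level was lower in A197-270 cells (-3.01, limma adjusted p = 0.00471), with rises of at least 10.3-fold in A197-270 and at least 87.2-fold in vector cells. The interaction of -3.01 was not called (adjusted p = 0.245), although it was with a pseudocount of 10 (-2.16, 0.0102) and with no filter on low values (-3.01, 0.0349). CXCL11, a ligand of the same receptor, had 1.99 (adjusted p = 0.186) and stayed lower in A197-270 cells with IFN-gamma, at 33.5, 45.9 and 18.8 against 428, 312 and 310.1. Its interaction was called without A197-270 5 (2.48, 0.0257) and after quantile normalization (2.25, 0.0388), and turned to -0.38 with a pseudocount of 10.

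Of the 4 tested interferon genes IFNB1 was called. IFNL1, an interferon lambda gene, was at 0 in A197-270 libraries 4, 5 and 6 and at 137, 133 and 116 in vector libraries, and had 8.38, 12.1 and 5.21 and 364, 279.5 and 271 with IFN-gamma. Its interaction of 1.96 had an adjusted p of 0.0714 in limma, 0.0159 without A197-270 + IFN-gamma 12, 0.0137 in edgeR and 0.0196 in DESeq2, and was -0.30 with a pseudocount of 10. IFNL2 and IFNL3, which are near-identical and could share reads, had 0.798 and 1.04 normalized counts on average in A197-270 + IFN-gamma cells against 75.3 and 36.5 in vector + IFN-gamma cells. IFNB1 and IFNL1 thus lay below every vector library in every A197-270 library with IFN-gamma, where IFIT3 overlapped. The list's count was 2 without A197-270 + IFN-gamma 12 and 0 with a pseudocount of 10.

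In MHC class I presentation 9 of 17 genes had a larger response and 8 were not called (median 0.38). TAP1 (ENSG00000168394.10, chr6:32845209-32853978, minus strand), a subunit of the peptide transporter, had 1447, 1352 and 1304 in vector and 489, 422 and 463 in A197-270 libraries, and 13727, 13692 and 14418 and 13553, 12253 and 11572 with IFN-gamma. Its groups were far apart before treatment and adjacent after it, and the interaction was 1.41 ± 0.09 SE (limma adjusted p = 9.22e-08). B2M, the light chain, had 23373, 22508 and 22833 in vector and 7256, 7493 and 7519 in A197-270 libraries, and 56664, 60366 and 59067 and 43250, 39038 and 37842 with IFN-gamma. It gained 32621 normalized counts in A197-270 cells and 35794 in vector cells and stayed lower at the end (-0.55), with an interaction of 1.07 ± 0.067 SE (limma adjusted p = 7.19e-08). ERAP2 and ERAP1, which trim peptides, had 1.45 and 0.64, TAP2 and TAPBP 0.42 and 0.58, and HLA-E and HLA-C 0.86 and 0.38. HLA-B and HLA-F were not called, at 0.22 and -0.19 (adjusted p = 0.313 and 0.428). Reads of HLA genes can be shared or lost between alleles and paralogs, so their values are uncertain. HLA-B was -1.05 before and -0.83 with IFN-gamma, so the construct difference was called at both times.

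Of the 5 immunoproteasome genes PSMB9 (1.82), PSME1 (0.74) and PSME2 (0.49) had a larger response, while PSMB8 and PSMB10 were not called (-0.54 and -0.14). PSMB9, a catalytic subunit, had 122, 151 and 129 in vector and 25.3, 38.5 and 25.2 in A197-270 libraries, and 1872, 1933 and 1878 and 1593, 1507 and 1389 with IFN-gamma, lower in A197-270 libraries at both times. Of 5 guanylate-binding protein genes GBP1 was called. GBP1 (ENSG00000117228.9, chr1:89052319-89065360, minus strand), a GTPase that coats bacteria and vacuoles, had 189, 165 and 155 in vector and 19.7, 29.8 and 18.9 in A197-270 libraries, and 10789, 10021 and 9770 and 8428, 7767 and 7370 with IFN-gamma. It rose 59.9-fold in vector and 336-fold in A197-270 cells, and the interaction was 2.49 ± 0.19 SE (limma adjusted p = 5.86e-07). GBP2, GBP3, GBP4 and GBP5 had 0.11, 1.84, 0.12 and 1.16 with adjusted p-values of 0.305 to 0.967, and mean levels without IFN-gamma of at most 62.4 normalized counts. The called members of this family numbered 2 without vector 1 and 3 in DESeq2.

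**Figure D4:**
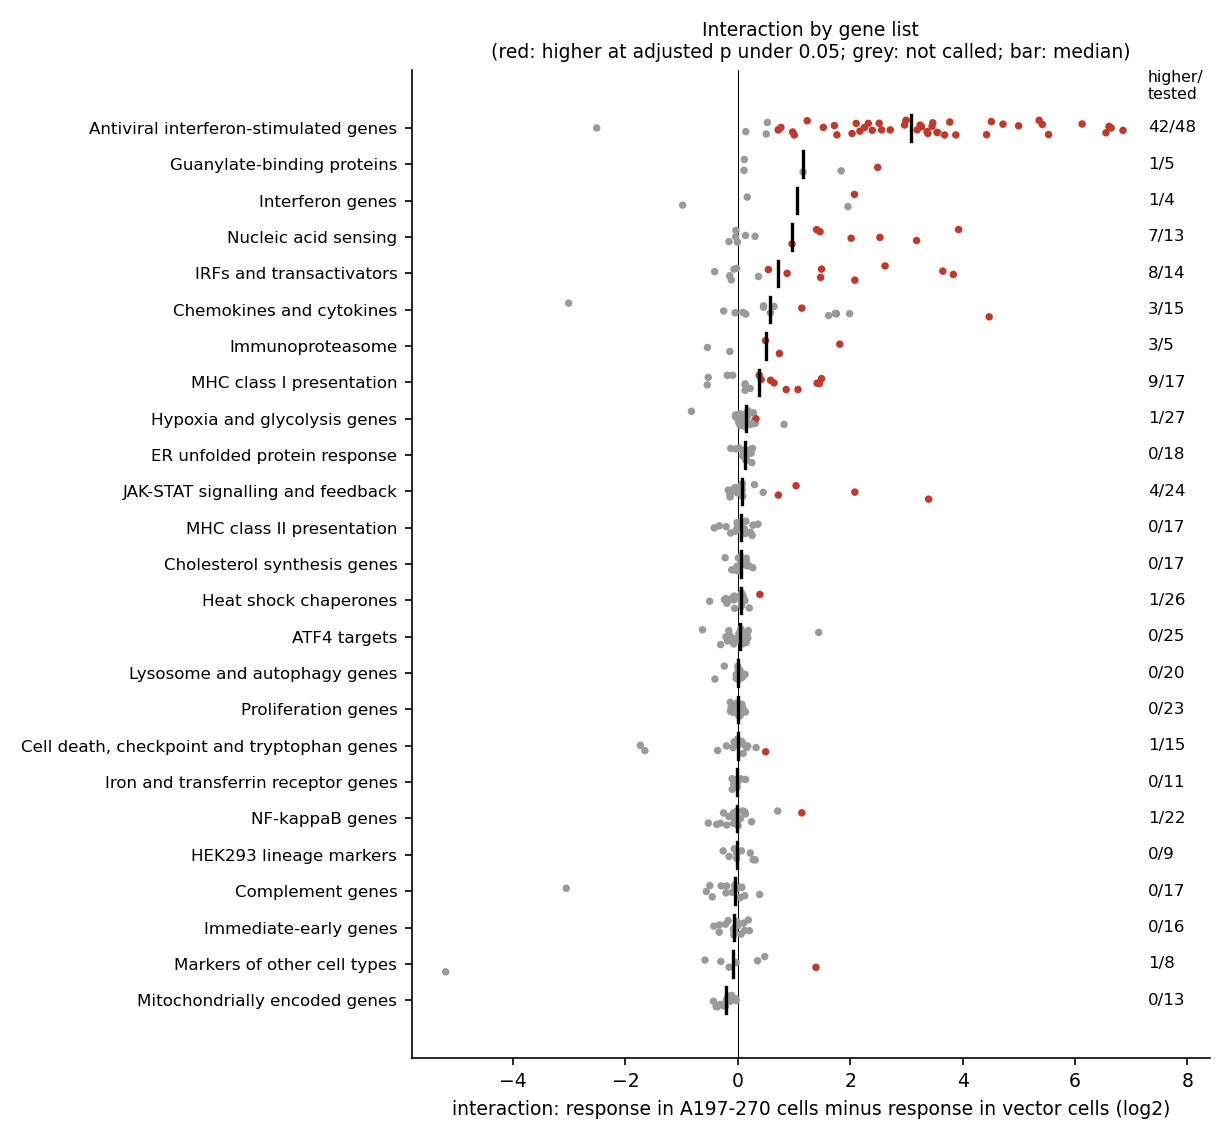
Interaction of each tested gene, on the log2 scale, in the 25 gene lists, with red points for genes called higher, grey points for genes not called and a bar at the median of each list. The antiviral list lies farthest to the right with 42 of 48 genes called. No gene of any list is called lower, where 0.0783% of all genes tested were.

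Some genes that IFN-gamma raised strongly had no called interaction with a pseudocount of 1, which does not by itself show equal responses. WARS, the tryptophan transfer RNA synthetase, rose by 3.25 in vector and 3.25 in A197-270 cells, from 4488 and 4896 to 42800 and 46469 normalized counts, and its interaction was -0.01 ± 0.06 SE (limma adjusted p = 0.975). CD274, the checkpoint ligand PD-L1, had 43.4, 58.9 and 48.2 in vector and 29.1, 32.7 and 25.2 in A197-270 libraries, and 438, 521 and 515 and 364, 281 and 302 with IFN-gamma. It was lower in A197-270 libraries at both times, with an interaction of 0.13 ± 0.23 SE (limma adjusted p = 0.858) and a 95% interval of -0.36 to 0.61. IDO1, the enzyme that breaks down tryptophan, was at 0 in all vector and A197-270 libraries without IFN-gamma and reached 183, 173 and 159.9 and 46.7, 55.5 and 51.1 with it. Its treated level was lower in A197-270 cells (-1.73, limma adjusted p = 0.00902). It rose at least 63.5-fold in A197-270 and at least 203-fold in vector cells, and its interaction of -1.73 was called with a pseudocount of 10 (-1.58, adjusted p = 0.00505) but not at 1 (0.313).

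In the complement list 0 of 17 genes were called, where 0.897% of all genes tested were. SERPING1, the C1 inhibitor, had an interaction of 0.39 (limma adjusted p = 0.0654) beside rises of 3.45 in vector and 3.84 in A197-270 cells. Of the complement genes 1 was called higher without A197-270 6, vector 3 or A197-270 + IFN-gamma 12, and 1 lower without vector 3. In the MHC class II list 0 of 17 were called, against the same 0.897% of all genes. Its transactivator CIITA, at 1.05 to 15.9 normalized counts in the 12 libraries, was too low to be tested. In the cell death, checkpoint and tryptophan list 1 of 15 was called, and in the NF-kappaB list CXCL8 alone of 22, where 0.897% of all genes tested were. ICAM1, an adhesion molecule, rose in both arms (2.21 and 2.92) with an interaction of 0.71 (adjusted p = 0.504).

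In the heat shock and hypoxia lists, many genes differed between the constructs at both times and 1 gene of each had a called interaction. HSPA6, a stress-inducible HSP70 chaperone, had 18.1, 24 and 21.8 in vector and 7882, 7523 and 7364 in A197-270 libraries, and 22.6, 27.6 and 26.9 and 7675, 8020 and 8225 with IFN-gamma. The constructs were far apart at both times, and the interaction was -0.19 ± 0.14 SE (limma adjusted p = 0.613) with a 95% interval of -0.50 to 0.11. Of 26 heat shock chaperones 12 were higher and 4 lower at baseline, where 12.5% and 12.6% of all genes were. With IFN-gamma 14 were higher and 1 lower, where 18.6% and 16.2% of all genes were. Of the 26, 1 was called in the interaction, where 0.897% of all genes were. That was DNAJA1, an HSP40 co-chaperone, with 15153, 15033 and 16032 in vector and 11991, 13021 and 12758 in A197-270 libraries, and 13647, 14140 and 13661 and 15111, 15214 and 14152 with IFN-gamma. Its A197-270 libraries were all below the vector libraries before treatment and all above them, narrowly and without a call, after it (0.39 ± 0.061 SE, limma adjusted p = 0.00243). Of 27 hypoxia and glycolysis genes 21 were higher at baseline and 25 with IFN-gamma, where 12.5% and 18.6% of all genes were. NDRG1 alone was called in the interaction (0.32 ± 0.064 SE, limma adjusted p = 0.0234). Its call was lost under equal totals (0.29, adjusted p = 0.0544) and without vector 1 or 2, A197-270 5 or 6, vector + IFN-gamma 7, A197-270 + IFN-gamma 11 (adjusted p = 0.0508 to 0.0839), and DESeq2 called 6 of the list. The list's count was 2 without vector + IFN-gamma 8 or A197-270 + IFN-gamma 12.

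The lists for ATF4 targets, the ER unfolded protein response, cholesterol synthesis, immediate-early genes, iron handling, proliferation, lysosome and autophagy, HEK293 lineage and mitochondrially encoded genes had 0 called genes each, with medians between -0.20 and 0.14. Over all genes tested 0.897% were called, so a count of 0 in such short lists says little about them. Without A197-270 + IFN-gamma 10, 1 of the HEK293 markers was called higher, and without A197-270 + IFN-gamma 11, 1 of the ATF4 targets lower. The value of -0.20 was that of the 13 mitochondrially encoded genes. Of these 10 were higher in A197-270 cells at baseline and 7 with IFN-gamma, where 12.5% and 18.6% of all genes were. MYC and the transferrin receptor gene TFRC were higher in A197-270 cells at both times, with interactions of 0.21 and -0.02 (limma adjusted p = 0.544 and 0.958). GH1, the growth hormone gene, had 10189, 10412 and 11080 in vector, 11826, 14824 and 14690 in vector + IFN-gamma, 1.88, 0 and 2.1 in A197-270 and 0 in A197-270 + IFN-gamma libraries 10, 11 and 12. Both A197-270 groups were at or near the floor of 3 reads, so no fold response is given for them. Its interaction was not called (limma adjusted p = 0.199) except without A197-270 5 (-1.96, adjusted p = 7.35e-06). ZFYVE21 and RNF34 had -0.08 and -0.12 and were not called.

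Of the 8 tested markers of other cell types 1 was called, where 0.897% of all genes tested were. This was CD68, a lysosomal glycoprotein of macrophages. It had 302, 267 and 320.4 in vector and 39.4, 46.1 and 54.6 in A197-270 libraries, and 608, 1014 and 773 and 255, 413 and 330.3 with IFN-gamma, lower in A197-270 libraries at both times. Its interaction was 1.39 ± 0.27 SE (limma adjusted p = 0.0214), and the call was lost without vector 1, A197-270 4, vector + IFN-gamma 7 or 9, A197-270 + IFN-gamma 11 or 12 (adjusted p = 0.0524 to 0.0689).

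A smaller response in A197-270 cells was called for 11 genes, 0.0783% of those tested, and none of them belongs to the interferon or stress lists. At so small a share, their absence from the lists says little about the lists. NT5DC2, a member of a nucleotidase family, had 2041, 2064 and 2234 in vector and 4079, 3953 and 4450 in A197-270 libraries, and 1868, 1935 and 1995 and 2599, 2376 and 2566 with IFN-gamma. It was high in A197-270 cells at baseline, fell there with IFN-gamma (-0.73) and stayed above every vector library, and the interaction was -0.60 ± 0.077 SE (limma adjusted p = 0.000353). TNFRSF10D, a decoy receptor for the death ligand TRAIL, had 344, 386 and 412 in vector and 644, 640.1 and 742 in A197-270 libraries, and 338, 343 and 379.7 and 399.8, 380.1 and 369 with IFN-gamma. The A197-270 group was high only without the cytokine, and the interaction was -0.71 ± 0.13 SE (limma adjusted p = 0.00874). GPAA1, a subunit of the enzyme that attaches GPI anchors, also fell in A197-270 cells (-0.53) and had an interaction of -0.60 ± 0.11 SE (limma adjusted p = 0.00777). CLN8, an ER membrane protein, rose in vector cells (0.33), and its construct difference turned from 0.32 to -0.22. RC3H1, the RNA-binding protein roquin-1, rose in vector cells (0.34) and was lower in A197-270 cells with IFN-gamma (-0.46). For 10 of the 11 genes the treated levels lay within 1.5-fold by the 95% interval.

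The remaining exception, AC010547.5 (ENSG00000261611.5, chr16:71447600-71489311, minus strand), a clone-named gene chosen after its values were seen, had 75.9, 398 and 122 in vector, 61, 425 and 674 in A197-270, 183, 211 and 159.9 in vector + IFN-gamma and 12, 6.03 and 14.6 in A197-270 + IFN-gamma libraries. The first 2 groups spread widely and the last was low, giving -4.78 ± 1.01 SE (limma adjusted p = 0.0368). Its call was lost without any 1 of 10 libraries (adjusted p = 0.0524 to 0.113): vector 1 or 3, A197-270 5 or 6, vector + IFN-gamma 7 or 8 or 9, A197-270 + IFN-gamma 10 or 11 or 12. It was also lost in edgeR, with no filter on low values and with a pseudocount of 10 (adjusted p = 0.0512 to 0.0706). LINGO1 (-0.40), a neuronal membrane protein gene, lost its call without vector 1 or 2, A197-270 4, vector + IFN-gamma 7 or 9, and RIPOR1 (-0.33) without vector 2, A197-270 6, vector + IFN-gamma 8 or 9, A197-270 + IFN-gamma 10 or 11. COL18A1 (-0.42), a basement membrane collagen gene, lost it without vector 1 or 2, A197-270 4 or 5 or 6, vector + IFN-gamma 7 or 9, A197-270 + IFN-gamma 10 or 11. CIRBP (-0.32), a cold-inducible RNA-binding protein gene, lost it without vector 1 or 2, A197-270 4 or 5 or 6, vector + IFN-gamma 7 or 8 or 9, A197-270 + IFN-gamma 10. MAX (-0.29), the partner of MYC, lost it without vector 1 or 2, A197-270 4 or 5 or 6, vector + IFN-gamma 8 or 9, A197-270 + IFN-gamma 10 or 11. The adjusted p-values were then up to 0.148. The count of 11 depended on which libraries were used: it was 78 without vector 3 and 29 without A197-270 + IFN-gamma 12, and each of these counts held 10 of the 11. It was 6 without vector 1 or A197-270 6, 7 without vector 2, A197-270 4 or vector + IFN-gamma 8, 23 under equal totals and 60 in DESeq2.

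The count of 115 ranged from 96 without vector 2 to 151 without vector 3, was 115 in edgeR, of which 112 were shared, 105 under equal totals and 219 in DESeq2. Every setting tried called 90 of the 115 genes and 5 of the 11. The numbers of genes that differed between the constructs depended on the scaling: 1756 higher and 1766 lower at baseline became 1161 and 2741 under equal totals, and 2616 and 2272 with IFN-gamma became 1512 and 4170. The median interaction over all genes moved by less than 0.1 under each scaling, from 0.01 to -0.03 under equal totals.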

How the data were processed

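RNA of HEK293 cells was sequenced after poly(A) selection, per the labels' protocols. The authors deposited 1 table of normalized counts for 19836 genes, a signal in which each library's whole reads were scaled by a single factor. The build was hg38 and the tools named were DESeq2 1.22.1, StringTie 1.3.3b and HISAT2 2.1.0, without their roles, per the submitters' processing notes. Rescaled by its step, every column gave whole reads for 100% of its values within 0.001, and these reads were used for edgeR 4.0.16 and DESeq2 1.42.0, which were alternatives. How reads shared by overlapping or near-identical genes were assigned, and whether strand was used, is unknown from the sources at hand, so values of HLA genes, IFNL2 and IFNL3, NME2 and read-through genes are uncertain.

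Groups came from the titles and treatment labels. No replicates agreed within sampling noise (chi-square per degree of freedom 5.72 to 16.9). The model was fitted in limma 3.58.1 (R 4.3.3) with 4 group means to log2(value + 1) of all 12 libraries, with the prior variance following the mean. It covered the 14049 genes whose mean reached 10; the other rows held 0.0179% of the reads. P-values were two-sided. The scale understates changes of low genes, and where a group was at 0 folds are bounds against 3 reads over the group, for counting error only. Alternatives were pseudocounts of 0.5 and 10, no filter, a mean of at least 50, equal totals, quantile normalization, edgeR, DESeq2 and leaving out each library. The fit was tested on simulated data.

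Named genes were a fixed set of 30, the 3 largest interactions per class and direction, and up to 3 called members per list (or the highest mean) with a mean of at least 50, clone-based names aside. EIF2AK2, IFI6, MX2, OAS2, PNPT1, HERC5, AC010547.5, CIRBP, APOL6 and IFITM3, and genes given by interaction or mean alone, were chosen after their values were seen. The members and the 25 lists were chosen with earlier results of these data known. Positions are from GENCODE 29, which 19804 identifiers matched, and promoters from RefSeq. Some genes that the naming rule takes are not reported here.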

Additional observations from a re-analysis of the deposited data

Results flagged for a closer look

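The genes below are those chosen by the naming rule, and the larger responses do not list whole classes. Each had a response to IFN-gamma that differed between A197-270 and vector cells in the interaction term of limma, at an adjusted p under 0.05 over all genes tested, with 3 libraries in each of the 4 groups. Values are the response in A197-270 cells minus that in vector cells on the log2 scale. No explanation of these differences was tested.

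Among genes whose construct difference was called at both times in the same direction, the values were XAF1 at 6.65, RSAD2 at 6.61, IFI44 at 5.53, MX2 at 5.42, OAS2 at 5.36, IFIT1 at 4.72, CXCL10 at 4.47, SP100 at 3.84, SP110 at 3.65, IFI6 at 3.46, ISG15 at 3.37, IFIH1 at 3.18, IFITM3 at 2.71 and IFI16 at 2.53. Further values were GBP1 at 2.49, IRF9 at 2.08, IFNB1 at 2.08, CCL5 at 1.75, HERC5 at 1.52, CD68 at 1.39, PNPT1 at 1.22, B2M at 1.07, STAT2 at 1.04 and NDRG1 at 0.324. Among genes called only without IFN-gamma the values were OAS1 at 6.86, CMPK2 at 6.55, IFIT3 at 6.13, DDX58 at 3.93, IRF7 at 2.62, APOL6 at 2.32, EIF2AK2 at 2.02, PSMB9 at 1.82, NLRC5 at 1.49, ERAP2 at 1.45, TAP1 at 1.41, CXCL8 at 1.14, PSME1 at 0.741, IRF1 at 0.545, PSME2 at 0.494 and DNAJA1 at 0.393. Among genes whose construct difference changed sign those named were IFIT5 at 2.17, TRIM25 at 1.76 and SAMHD1 at 0.977. Among genes called only with IFN-gamma those named were NME2 at 1.08, THG1L at 0.457 and ALKBH3 at 0.377. Some values moved by over 1.5 times with the setting, in genes whose mean in A197-270 cells without IFN-gamma was between 0 and 6.24 normalized counts. Over the alternatives XAF1 ranged from 3.41 to 9.68, CMPK2 from 4.05 to 7.58, MX2 from 2.72 to 6.15, CXCL10 from 2.77 to 5.15, IFNB1 from 1.16 to 2.36 and IFI16 from -0.144 to 5.57.

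Responses were smaller in A197-270 cells in the following genes. Those with a construct difference called only without IFN-gamma were CIRBP at -0.315, COL18A1 at -0.424, GPAA1 at -0.601 and TNFRSF10D at -0.711. Those with a difference called only with IFN-gamma were RIPOR1 at -0.328, RC3H1 at -0.343, LINGO1 at -0.402 and AC010547.5 at -4.78. The construct difference kept its sign in NT5DC2 at -0.598 and changed sign in MAX at -0.291 and CLN8 at -0.548.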

How the results depend on the processing

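Of the 59 genes of the naming rule with a called interaction, 44 were called under every setting. Without 1 library each, the counts ranged over 96 to 151 genes higher and 6 to 78 lower in the interaction, 1319 to 1823 and 1268 to 1873 at baseline, 2073 to 2666 and 1622 to 2315 with IFN-gamma, 592 to 1157 and 801 to 1447 for the response in vector cells and 389 to 603 and 186 to 489 in A197-270 cells. The classes of larger responses ranged over 36 to 56 genes (baseline only), 48 to 75 (same direction), 3 to 9 (opposite) and 0 to 22 (treated only), and those of smaller responses over 2 to 18, 1 to 3, 0 to 18 and 2 to 39. DESeq2 gave 219 higher and 60 lower, in classes of 119 (same), 8 (opposite) and 35 (treated only) for larger and 15 (baseline only), 2 (same), 4 (opposite) and 39 (treated only) for smaller responses. Equal totals gave 23 lower interactions, 1161 and 2741 at baseline, 1512 and 4170 with IFN-gamma, 830 lower in the vector response, classes of 2 (opposite) and 1 (treated only) for larger and 3 (same) and 12 (treated only) for smaller responses. Quantile normalization gave 3 (opposite, larger) and 8 (treated only, smaller), and no filter 8 (treated only, smaller).

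The sign turned in IFI16, called at 2.53, which was -0.144 with a pseudocount of 10, and in genes that were not called: LAMP2 -0.00305 (edgeR), -0.0314 (equal totals), -0.0342 (quantile normalization), VIM -0.0953 (quantile normalization), CD46 -9.25e-05 (quantile normalization), ATF3 -0.00799 (quantile normalization), JUN -0.0683 (quantile normalization), FTH1 0.000681 (DESeq2), CD274 -0.00476 (pseudocount 10), CXCL11 -0.382 (pseudocount 10), IFNL1 -0.3 (pseudocount 10), SOCS1 -0.0964 (pseudocount 10). Without 1 library each it turned in genes that ranged over LAMP2 -0.0422 to 0.0484, TFRC -0.0793 to 0.0369, FTH1 -0.0759 to 0.0559, CD74 -0.74 to 0.058, SOCS1 -0.245 to 0.654, INSIG1 -0.0162 to 0.117. The cause of these changes was not tested. No paired analysis was possible because the labels number the samples 1 to 12 and the groups share no number. Depth limits the low genes: the floor of 3 reads over a group was 0.804 to 1.14 normalized counts, and CIITA was not tested.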

Other observations

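Of the 115 genes with a larger response in A197-270 cells, 36 belonged to none of the 25 lists. RARRES3, a phospholipase induced by retinoids and interferons, was at 0 in all A197-270 libraries and at 24.1, 19.98 and 18.2 in vector libraries, and reached 826, 879.8 and 772 and 1024, 1030 and 1007 with IFN-gamma. The A197-270 libraries lay below the vector libraries at both times. Its fitted interaction was 4.13 (limma adjusted p = 3.43e-08) and is a fold from 0 that depends on the pseudocount. SLC15A3, a lysosomal peptide transporter, had 0, 0.584 and 0 in A197-270 and 20.5, 24 and 24.7 in vector libraries, and 300.5, 300.5 and 251 and 598, 501 and 554 with IFN-gamma. Its interaction was 3.41 (limma adjusted p = 1.42e-05). HELZ2, a nuclear helicase and coactivator, went from 1761 to 9839 normalized counts in A197-270 cells and from 11105 to 13454 in vector cells.

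The tripartite motif family genes TRIM69, TRIM14, TRIM56 and TRIM38 were also outside the lists, with interactions of 1.2, 1.04, 0.57 and 0.48. TRIM14 had 2315, 2132 and 2074 in vector and 1124, 1084 and 1073 in A197-270 libraries, and 2313, 2277 and 2146 and 2259, 2411 and 2303 with IFN-gamma. Its A197-270 libraries were low only without the cytokine. CMTR1, which methylates the first nucleotide of capped messenger RNA, had an interaction of 0.33, and ZNFX1, an RNA helicase, one of 0.86. SND1 and CA8 differed from this pattern: they were higher in A197-270 cells at both times, by 0.32 and 0.26 before and 0.60 and 0.53 with IFN-gamma, and fell in vector cells (-0.33 and -0.37). These genes were chosen after their values were seen.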
